A study of Mus musculus with 32 samples.

Results

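The comparison described here asks which transcripts differed when Pkm2-floxed mouse cardiac fibroblasts received the Cre recombinase vector in place of the LacZ vector and were then held with basic fibroblast growth factor. It comprises the 4 iCre libraries and the 4 LacZ libraries of the bFGF condition, 8 of the 32 libraries of the series, chosen by their titles and paired by replicate number (1 to 4). The remaining libraries carry the same vectors in serum-starved medium without a factor (SS), with interleukin-1β (IL-1b) or with transforming growth factor β (TGFb). All 8 libraries share the genotype label C57BL/6J_Pkm2fl/fl, so the LacZ cells also carry the floxed allele. iCre is a codon-improved Cre recombinase, which excises DNA between loxP sites, and LacZ encodes the bacterial β-galactosidase and serves as the vector control. The cells were used at passage 1 and had been grown in serum medium that already held bFGF. They were then placed in serum-free conditions with bFGF at 20 ng/ml for 24 h, and poly(A) RNA was sequenced. The type of vector, the share of recombined cells and the meaning of a replicate number are not stated in the labels, so the p-values measure the spread between these libraries, which may be technical.

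The labels hold contradictions that touch these 8 libraries. The treatment tag of the LacZ libraries with bFGF reads iCre_TNFa, whereas their titles and library names read LacZ and FGF, and the groups follow the titles. The growth and treatment text speaks of TAK1fl/fl mice, whereas the genotype tag and the series design name Pkm2. Map3k7, which encodes TAK1, stood at 140, 135, 141 and 120 CPM (the count scaled to the size of its library) in LacZ libraries 1 to 4 and at 137, 121, 134 and 100 CPM in the iCre libraries. Its log2 difference was -0.13 ± 0.06 (iCre minus LacZ, SE, adjusted p = 0.470 in edgeR), and it was lower with iCre in 4 of 4 pairs.

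Pyruvate kinase catalyses the last step of glycolysis, the transfer of phosphate from phosphoenolpyruvate to ADP. The Pkm gene makes its M1 and M2 forms by including one or the other of a pair of mutually exclusive exons, a choice in which the RNA-binding proteins Ptbp1, Hnrnpa1 and Hnrnpa2b1 favour the M2 exon. The M1 form is constitutively active, whereas the M2 form switches between active and less active states and is common in proliferating cells, cultured fibroblasts among them. bFGF signals through FGF receptors and the ERK cascade, supports fibroblast proliferation and is known to oppose the myofibroblast programme that TGFb drives.

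The pair of exons is shown because recombination of a Pkm2-floxed allele acts on it, while the deposited counts are per gene and cannot tell the forms apart. Both lie on the plus strand of chromosome 9 of GRCm38, inside Pkm (ENSMUSG00000032294, chr9:59656368-59679375), at chr9:59675029-59675195 for the upstream exon, which the M1 form uses, and at chr9:59675568-59675734 for the downstream exon, which the M2 form uses. Each is 167 bases long, 103 positions are identical between them and 64 differ (61.7% identical), and capitals mark the positions that differ. Both are coding sequence, read 5′ to 3′ from the GENCODE M21 transcripts.
Upstream exon: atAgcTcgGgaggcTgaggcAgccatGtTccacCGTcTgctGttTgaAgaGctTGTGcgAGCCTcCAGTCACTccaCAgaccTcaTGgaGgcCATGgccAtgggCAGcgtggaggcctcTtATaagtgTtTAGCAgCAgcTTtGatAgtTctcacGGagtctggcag
Downstream exon: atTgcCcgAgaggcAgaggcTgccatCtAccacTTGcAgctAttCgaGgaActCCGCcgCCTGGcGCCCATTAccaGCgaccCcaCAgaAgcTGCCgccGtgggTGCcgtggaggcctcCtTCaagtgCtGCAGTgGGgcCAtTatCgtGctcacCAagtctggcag

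The 8 libraries held between 23716949 and 32383855 counts. Same-numbered iCre and LacZ libraries deviated together from their group means, with correlations between 0.422 and 0.874 over genes, so differences were taken within pairs. The markers of cardiac fibroblasts were abundant: Col1a1 ranged from 3077 to 11042 CPM, Pdgfra, the PDGF receptor α, from 440 to 1409 CPM, and Dcn, the small proteoglycan decorin, from 567 to 880 CPM. The number 4 pair stood apart from the other three in many genes, with the lowest Col1a1 in both groups.

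Pkm, the targeted gene, was lower with iCre in every pair. It stood at 1040, 1008, 1138 and 1112 CPM in LacZ libraries 1 to 4 (1075 ± 60.5 CPM, SD, n = 4) and at 720, 771, 984 and 642 CPM in the iCre libraries (779 ± 147 CPM, SD, n = 4). The highest iCre library lay below the lowest LacZ library, so the groups did not overlap. Within pairs the log2 differences were -0.53, -0.39, -0.21 and -0.79, the smallest in number 3 and the largest in number 4. The fitted log2 difference was -0.48 ± 0.10 (SE), which leaves 0.719 of the LacZ level, with an adjusted p of 0.154 in edgeR's quasi-likelihood test within pairs. Flipping the signs of the 4 differences in every way (exact permutation test, two-sided) gave p = 0.125, the smallest that 4 pairs allow. The adjusted p was 0.00258 in DESeq2 and 0.0439 in edgeR without number 4, where the log2 difference was -0.37. In edgeR over all 32 libraries it was 0.0284 with a block for each pair and 0.774 with an additive replicate block. The former takes repeats of the same numbers in other conditions as independent. Pkm did not pass in edgeR without number 1, 2 or 3 (adjusted p = 0.408, 0.477 and 0.218) or in limma-voom (0.118).

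The splicing regulators of Pkm differed little in total level. Ptbp1 showed a log2 difference of -0.02 ± 0.06, Hnrnpa1 of 0.04 ± 0.06, Hnrnpa2b1 of 0.05 ± 0.07 and the SR protein Srsf3 of 0.08 ± 0.06 (SE, adjusted p between 0.714 and 0.931). Khdrbs1, which encodes the RNA-binding protein Sam68, was higher with iCre in 4 of 4 pairs (0.20 ± 0.06, adjusted p = 0.263). Ptbp3, a paralog of Ptbp1, was lower in 4 of 4 pairs (-0.21 ± 0.07, adjusted p = 0.309). None of the 10 genes of the Pkm and splicing list passed in the paired edgeR fit, where 1 was higher and 2 were lower at an unadjusted p under 0.05, and Pkm alone passed in DESeq2.

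**Figure D1:**
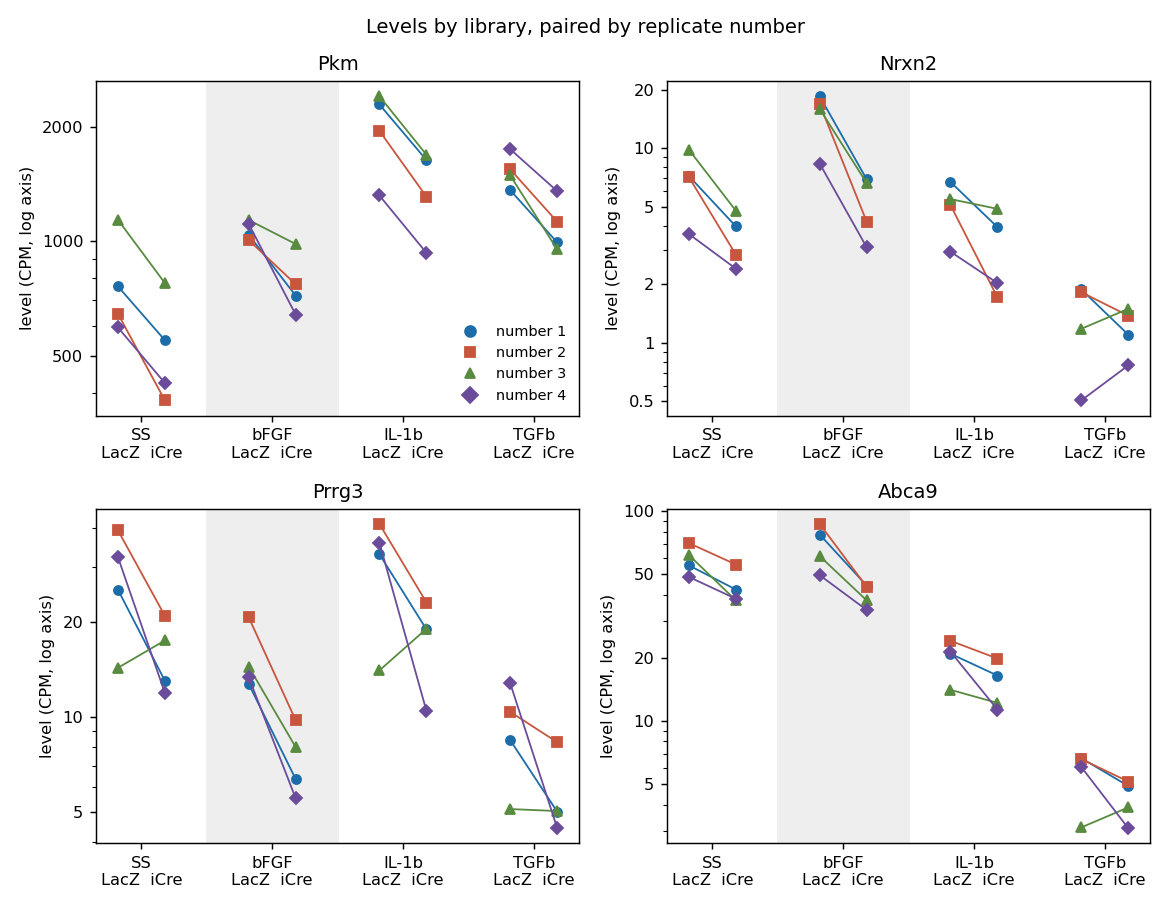
Levels of Pkm and of the 3 genes that fell, in CPM on log axes, for all 32 libraries. Each line joins the LacZ and the iCre library of one replicate number in one condition, and the bFGF condition is shaded. Under bFGF all 4 lines descend for all 4 genes, and the Pkm lines descend in the other conditions as well.

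Across the transcriptome 3 of 15163 tested genes passed an adjusted p of 0.05 in the paired edgeR fit (0.0198%). All 3 fell with iCre, and 0 rose. At an unadjusted p under 0.05 there were 1705 genes (11.2%), 770 higher (5.08%) and 935 lower (6.17%) with iCre. In DESeq2 242 genes passed (1.6%), 59 higher (0.389%) and 183 lower (1.21%), all 3 among them. In limma-voom 5 passed (0.033%), 1 higher (0.0066%) and 4 lower (0.0264%), again with all 3. The count changed with the fit: it was 0 without the replicate block and 0 without number 1, 2 or 3. With all pairs kept, it was also 0 with total counts and with a filter of at least 1 CPM in at least 4 libraries. Without number 4 it was 162 (1.08%), 72 higher (0.478%) and 90 lower (0.598%), with all 3 among them.

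Nrxn2, which encodes neurexin 2, a cell-adhesion protein best known from synapses, fell the most. It stood at 18.5, 16.9, 16.0 and 8.35 CPM in LacZ libraries 1 to 4 and at 6.92, 4.19, 6.62 and 3.09 CPM in the iCre libraries. Every iCre library lay below every LacZ library, and number 4 was the lowest in both groups. The log2 difference was -1.52 ± 0.14 (SE), or 0.348 of the LacZ level (adjusted p = 0.0422). Nrxn2 lies at chr19:6418731-6544169 on the plus strand of GRCm38.

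Prrg3, which encodes a transmembrane protein with a vitamin K-dependent Gla domain, fell to 0.482 of the LacZ level. It stood at 12.7, 20.8, 14.5 and 13.4 CPM in LacZ libraries 1 to 4 and at 6.34, 9.75, 8.01 and 5.503 CPM with iCre. The groups did not overlap, and number 2 was the highest in both. The log2 difference was -1.05 ± 0.10 (SE, adjusted p = 0.0422), and the adjusted p was 0.328 when all 32 libraries set the spread. Prrg3 lies at chrX:71962624-71972722 on the plus strand.

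Abca9, which encodes an ABC transporter of the A subfamily, fell to 0.590 of the LacZ level. It stood at 77.5, 87.0, 61.1 and 49.6 CPM in LacZ libraries 1 to 4 and at 44.2, 43.6, 37.6 and 33.8 CPM with iCre. The lowest LacZ library, number 4, lay above the highest iCre library, number 1. The log2 difference was -0.76 ± 0.08 (SE, adjusted p = 0.0422). Abca9 lies at chr11:110100749-110168196 on the minus strand.

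The 5 genes next in order among those lower with iCre did not pass. Icam1, the adhesion molecule that binds leukocyte integrins, stood at 93.6, 146, 95.0 and 96.3 CPM in LacZ libraries 1 to 4 and at 61.5, 113, 58.4 and 60.7 CPM with iCre. Number 2 was the highest in both groups, so the groups overlapped although every pair differed in the same direction (-0.58 ± 0.07, SE, adjusted p = 0.0638). Heph, the copper-containing ferroxidase hephaestin, showed -1.02 ± 0.12 (adjusted p = 0.0638). Its iCre libraries ranged from 4.47 to 12.4 CPM and its LacZ libraries from 7.14 to 26.9 CPM, with numbers 2 and 4 higher in both groups.

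Aass, the first enzyme of lysine breakdown, was separated between the groups at a low level. Its LacZ libraries held 5.92, 5.95, 6.09 and 4.16 CPM and its iCre libraries 2.88, 2.64, 2.59 and 2.07 CPM, a log2 difference of -1.11 ± 0.14 (adjusted p = 0.0708). Cyp2d22, a cytochrome P450, showed -0.67 ± 0.08 and Plxnc1, a semaphorin receptor, -0.61 ± 0.08 (both adjusted p = 0.0708). Without number 4 all 5 passed, with adjusted p between 0.0184 and 0.0296, and without number 1, 2 or 3 none of them passed.

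Among genes higher with iCre the 8 of smallest p lay between an adjusted p of 0.0638 and 0.127. Lgals3, the β-galactoside-binding lectin galectin-3, stood at 35.6, 27.0, 57.4 and 36.0 CPM in LacZ libraries 1 to 4 and at 50.6, 38.1, 73.9 and 53.7 CPM with iCre. Number 3 was the highest in both groups and the groups overlapped, but the pairs differed by similar amounts (0.49 ± 0.06, SE, adjusted p = 0.0708). Ugcg, the glucosylceramide synthase, stood at 50.2, 42.6, 54.3 and 45.7 CPM with LacZ and at 69.0, 58.8, 76.8 and 80.1 CPM with iCre. These groups did not overlap (0.56 ± 0.07, adjusted p = 0.0708).

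Sh3kbp1, an adaptor protein of receptor endocytosis, showed 0.42 ± 0.06 (SE, adjusted p = 0.0859). Ccl7, a monocyte chemokine, showed 0.40 ± 0.06 (adjusted p = 0.0977). Thbd, the thrombin receptor thrombomodulin, showed 0.64 ± 0.09 (adjusted p = 0.111), with 265 CPM in LacZ library 4 and 519 CPM in iCre library 4 against at most 115 and 169 CPM in the other libraries. Rgs2, a regulator of G-protein signalling, showed 0.73 ± 0.11 and Sprr1a, a small proline-rich protein, 0.60 ± 0.09 (both adjusted p = 0.127).

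Pcdh17, a protocadherin, had the largest difference of the 8 (1.56 ± 0.18, adjusted p = 0.0638) and was expressed almost entirely in number 4. It stood at 0.159, 0.416, 0.262 and 11.6 CPM in LacZ libraries 1 to 4 and at 0.389, 0.927, 1.08 and 34.7 CPM with iCre. Without number 4 its adjusted p was 0.132. Of the 16 genes named by this order, 14 passed without number 4, and all 16 passed in DESeq2. In these fits 162 and 242 genes passed in all. Without number 1, 2 or 3, 0 of the 16 passed. The 16 were chosen by p and direction in these same libraries, so the counts are a description and not support.

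**Figure D2:**
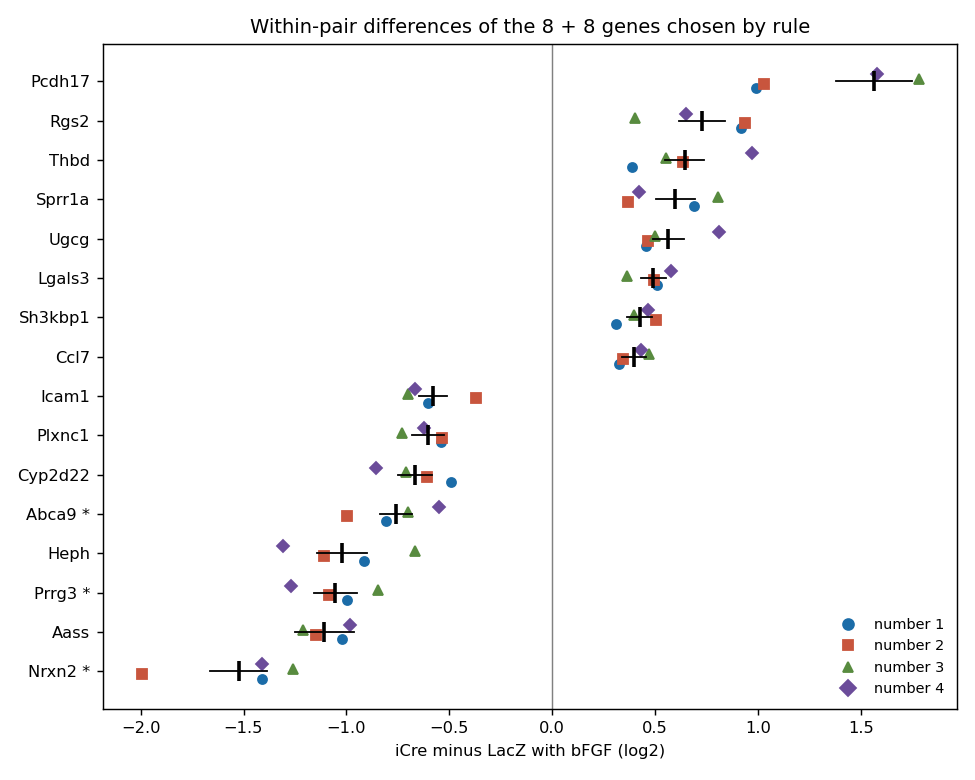
Log2 differences (iCre minus LacZ with bFGF) of the 8 genes lower and the 8 genes higher with iCre that the naming rule chose. Symbols are the 4 pairs, black ticks with bars the fitted difference ± SE, and asterisks the 3 genes with an adjusted p under 0.05. All 4 symbols lie on one side of 0 for each gene, as the rule requires.

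When the spread was taken from all 32 libraries with a block for each pair, 15 of 16760 genes passed (0.0895%), 13 lower (0.0776%) and 2 higher (0.0119%) with iCre under bFGF. The pairs of the other conditions repeat the same replicate numbers, and this fit takes them as independent. Its adjusted p-values therefore rest on a spread that partly comes from such repeats. The lower genes included Nrxn2, Abca9, Pkm, Icam1, Aass and Cyp2d22, together with Fmod, Ramp2 and Spon1. Fmod, the collagen-binding proteoglycan fibromodulin, stood at 99.5, 161, 129 and 9.99 CPM in LacZ libraries 1 to 4 and at 55.8, 72.4, 41.4 and 2.20 CPM with iCre. Number 4 held less than any other library in both groups, so the groups overlapped through it. The log2 difference in the paired fit was -1.36 ± 0.21 (SE, adjusted p = 0.154).

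Ramp2, the accessory protein of the adrenomedullin receptor, showed -0.85 ± 0.12 (adjusted p = 0.0977 in the paired fit and 0.00652 over 32 libraries). Spon1, the matrix protein spondin 1, showed -1.31 ± 0.23 (adjusted p = 0.150 and 0.00652). The 2 higher genes were Tuba4a, an α-tubulin (0.70 ± 0.12, adjusted p = 0.134 and 0.00835), and Igf2, insulin-like growth factor 2. Igf2 stood at 6.91 CPM in LacZ library 4 and 25.2 CPM in iCre library 4, and at no more than 0.801 CPM in any other of the 8 libraries.

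Collagen genes stood lower with iCre as a group, although 0 of the 19 tested passed the paired edgeR test (7 at an unadjusted p under 0.05, all lower). Of the 19, 17 were lower, 9 of them in 4 of 4 pairs, and Col12a1 alone was higher in 4 of 4; over all genes tested 10.6% were lower and 10% higher in every pair. The median log2 difference was -0.22, beside 0.00 over all genes, and it was -0.12, -0.27, -0.05 and -0.48 in pairs 1 to 4. Number 4 thus differed most and number 3 least. Without the replicate block the median was -0.14. Counts per gene from bulk cultures cannot tell fewer cells of a type from less RNA per cell.

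Col5a3, a minor fibrillar collagen chain, stood at 506, 471, 409 and 143 CPM in LacZ libraries 1 to 4 and at 418, 251, 342 and 87.4 CPM with iCre. The groups overlapped, with number 4 far below the rest in both (-0.53 ± 0.12, SE, adjusted p = 0.179). The basement-membrane chain Col4a2 stood at 4748, 3548, 4601 and 1745 CPM with LacZ and at 4230, 2640, 4304 and 1017 CPM with iCre (-0.36 ± 0.12, adjusted p = 0.309). Col8a2, a network-forming chain, showed -0.76 ± 0.17 (adjusted p = 0.183), and Col11a1 -0.24 ± 0.09 (adjusted p = 0.339). In DESeq2 2 of the 19 fell, Col5a3 and Col8a2.

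Of 29 other matrix genes tested, 19 were lower and 10 higher, and 8 and 3 were so in every pair (27.6% and 10.3%, beside 10.6% and 10% of all genes tested). The list had a median of -0.18 and pair medians of 0.00, -0.01, -0.14 and -0.30. Without number 4 the median was -0.07. In edgeR 0 passed, and at an unadjusted p under 0.05 there were 8 lower and 4 higher. The lower members were led by small leucine-rich proteoglycans that bind collagen fibrils. Lum, lumican, stood at 89.9, 108, 69.6 and 179 CPM in LacZ libraries 1 to 4 and at 63.0, 85.7, 47.0 and 156 CPM with iCre. Its groups overlapped, number 4 being the highest in both, while each pair was lower with iCre (-0.39 ± 0.07, SE, adjusted p = 0.153). Prelp showed -0.62 ± 0.18 (adjusted p = 0.299).

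Comp, the cartilage oligomeric matrix protein, showed -1.21 ± 0.28 (adjusted p = 0.177) from 3.71 to 5.68 CPM with LacZ and 1.07 to 3.30 CPM with iCre, which did not overlap. Mfap4, a microfibril-associated protein, showed -0.43 ± 0.11 (adjusted p = 0.198). The 3 members higher in every pair, 10.3% of the list beside 10% of all genes tested, were Thbs1, Tnc and Spp1, which encode matricellular proteins. In DESeq2 4 of the 29 fell (Lum, Fmod, Comp and Prelp) and 0 rose.

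Genes of fibroblast identity were lower in 16 of 21 tested, 9 of them in every pair (42.9% of the list, beside 10.6% of all genes tested). The list had a median of -0.16 and pair medians of -0.08, -0.14, -0.24 and -0.38. The list's median was -0.34 without number 2 and -0.10 without number 4. In edgeR 0 passed, and 7 had an unadjusted p under 0.05, all lower, beside 6.17% of all genes tested that were lower at that level. Gsn, the actin-severing protein gelsolin, stood at 4253, 4439, 3713 and 2677 CPM in LacZ libraries 1 to 4 and at 3610, 3002, 2180 and 1945 CPM with iCre. The groups overlapped through number 4, and every pair was lower with iCre (-0.50 ± 0.10, SE, adjusted p = 0.153). Dpt, the matrix protein dermatopontin, stood at 478, 606, 443 and 399 CPM with LacZ and at 426, 454, 302 and 241 CPM with iCre (-0.46 ± 0.09, adjusted p = 0.154).

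The homeobox gene Meox1 showed -0.58 ± 0.16 (adjusted p = 0.248) and the cardiac T-box gene Tbx20 -0.83 ± 0.30 (adjusted p = 0.406). Tbx20 stood between 1052 and 1133 CPM in LacZ libraries 1 to 3 and at 342 CPM in number 4, and its iCre levels were 990, 530, 857 and 95.1 CPM. In DESeq2 4 of the 21 fell, Lum, Gsn, Dpt and Gata4, beside 1.21% of all genes tested. Without number 4, Lum was the single member of this list that fell, beside 0.598% of all genes tested in that fit.

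**Figure D3:**
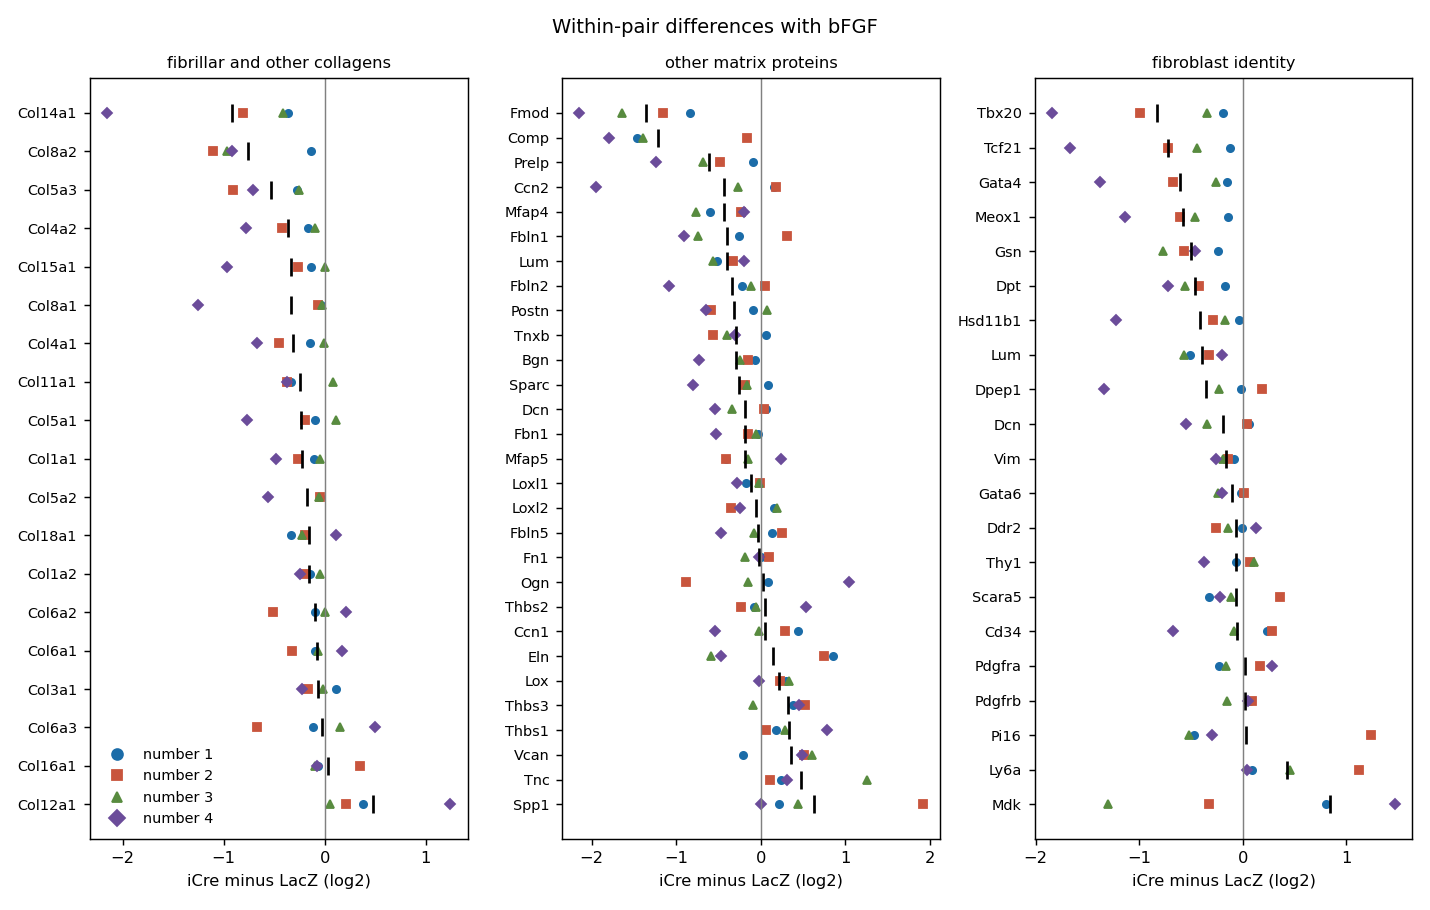
Log2 differences within pairs (iCre minus LacZ with bFGF) for every tested member of the collagen, other matrix and fibroblast identity lists. Symbols are the 4 pairs and black ticks the fitted difference. Most members lie left of 0, and the number 4 diamonds are often the farthest left.

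Glycolytic genes stood higher with iCre in 3 of the 4 pairs. Of 23 genes of glucose uptake and glycolysis tested, 20 were higher and 3 lower, 0 passed the paired edgeR test (6 at an unadjusted p under 0.05, all higher), and the list's median was 0.16 (0.29, 0.26, 0.21 and -0.05 in pairs 1 to 4). Number 4 was the exception, and 3 members were higher in all 4 pairs. Pkm itself was counted in its own list and not here.

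Slc2a1, the basal glucose transporter GLUT1, stood at 57.1, 54.6, 59.4 and 56.6 CPM in LacZ libraries 1 to 4 and at 72.2, 80.0, 74.7 and 65.0 CPM with iCre. The groups did not overlap, and the LacZ libraries were nearly level (0.36 ± 0.07, SE, adjusted p = 0.153 in edgeR, 0.0169 in DESeq2). Tpi1, triosephosphate isomerase, stood at 271, 261, 304 and 240 CPM with LacZ and at 348, 340, 370 and 251 CPM with iCre (0.28 ± 0.07, adjusted p = 0.199). Its number 4 pair differed by only 0.06.

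Pgk1, phosphoglycerate kinase, stood at 338, 297, 345 and 227 CPM with LacZ and at 415, 391, 462 and 203 CPM with iCre, so number 4 ran the other way (0.24 ± 0.10, adjusted p = 0.425). Pgam1, phosphoglycerate mutase, did the same (0.25 ± 0.09, adjusted p = 0.383). Pfkfb4, which sets the level of fructose 2,6-bisphosphate, showed 0.42 ± 0.10 (adjusted p = 0.184). Without number 4, 7 of the list rose (Slc2a1, Tpi1, Pgam1, Pgk1, Eno1, Hk2 and Pfkl) and 0 fell. Over all genes tested in that fit 0.478% rose and 0.598% fell. Without number 1, 2 or 3 no gene passed.

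Mitochondrial energy genes from the nucleus were mostly higher with iCre by small amounts. In the TCA cycle 18 of 20 genes were higher, 4 in every pair (20%), with a median of 0.06. Among nuclear genes of oxidative phosphorylation 30 of 35 were higher, 11 in every pair (31.4%), with a median of 0.07 (0.05 without number 4). Over all genes tested 10% were higher in every pair. None of either list passed in edgeR or DESeq2, and 0 had an unadjusted p under 0.05 in edgeR. Of the 13 genes of the mitochondrial genome 9 were lower and 4 higher (median -0.04), with pair medians of -0.37 in pair 3 and 0.33 in pair 4, and the median was 0.06 without number 3. Genes that decide the fate of pyruvate and lactate were split, 13 higher and 11 lower of 24, among them the monocarboxylate transporter Slc16a7 (-0.86 ± 0.24, SE, adjusted p = 0.252).

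Lipid synthesis genes had no common direction under bFGF. Of 24 cholesterol genes tested, 9 were higher and 15 lower (median -0.10, and -0.01 without number 1), and 0 passed in edgeR (2 at an unadjusted p under 0.05, both lower) or DESeq2. Insig1, the sterol-dependent brake on SREBP processing, was lower in 4 of 4 pairs (-0.19 ± 0.07, SE, adjusted p = 0.362). The acetyl-CoA carboxylases differed in opposite directions: Acaca, the cytosolic enzyme of fatty acid synthesis, showed 0.30 ± 0.07 (adjusted p = 0.175) and the mitochondria-associated Acacb -0.47 ± 0.09 (adjusted p = 0.154). Acacb stood at 15.6, 16.5, 14.4 and 14.9 CPM with LacZ and at 12.1, 12.6, 10.4 and 9.17 CPM with iCre, with no overlap.

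**Figure D4:**
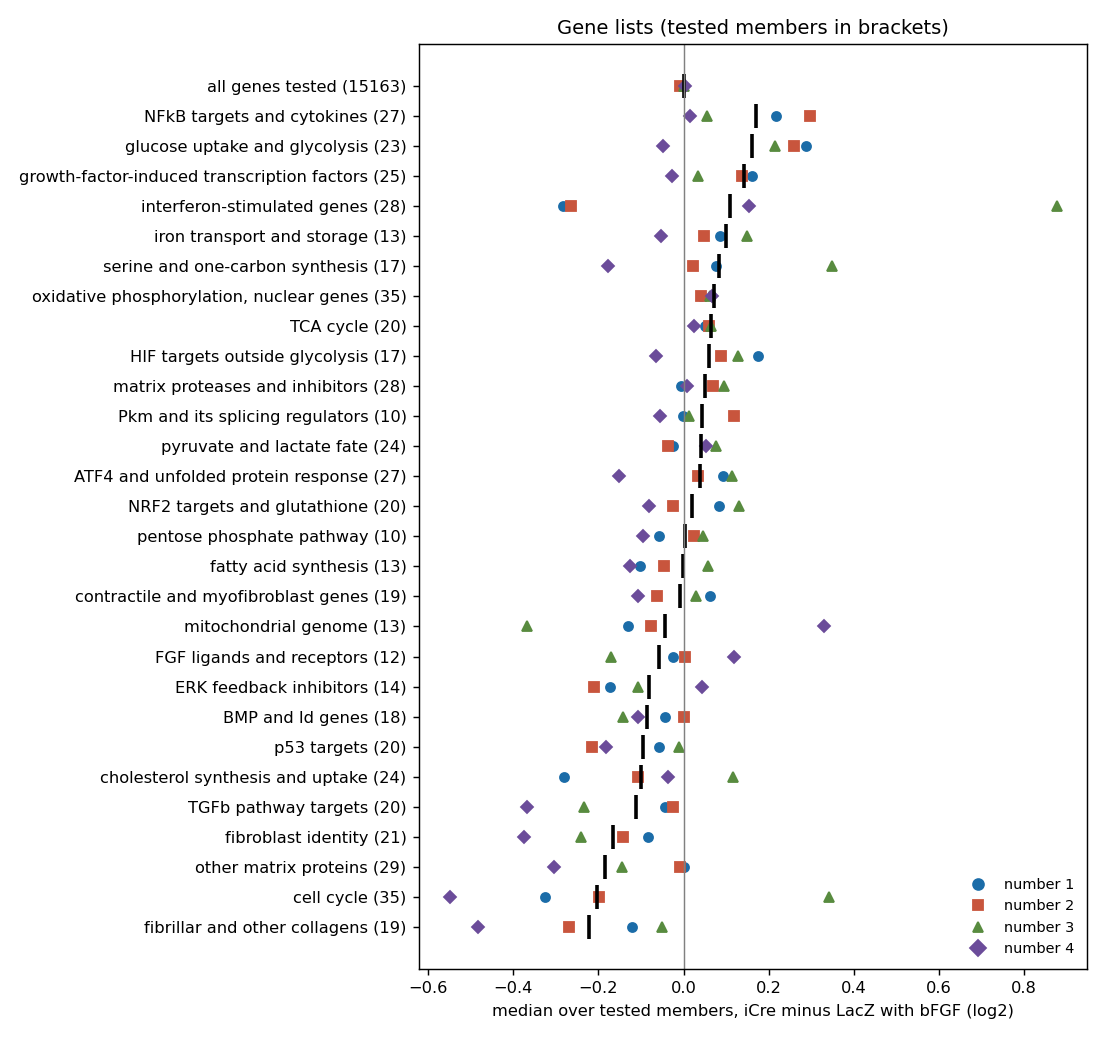
Medians of the gene lists over their tested members, as log2 differences within pairs (iCre minus LacZ with bFGF). Symbols are the 4 pairs, and the number of tested members stands in brackets. The collagen and fibroblast identity medians are below 0 in all 4 pairs, the glycolysis median is above 0 in pairs 1 to 3, and the interferon median is high in pair 3 alone.

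The ERK pathway, which bFGF drives, was followed through its feedback inhibitors, and growth-factor-induced transcription factors were described as a separate list. Of 14 feedback genes 10 were lower and 4 higher (median -0.08, -0.04 without number 1 and -0.15 without number 4), and 0 passed in edgeR (4 lower and 1 higher at an unadjusted p under 0.05). Spry4, an inhibitor of receptor tyrosine kinase signalling, stood at 128, 135, 113 and 92.6 CPM in LacZ libraries 1 to 4 and at 103, 96.5, 92.4 and 81.6 CPM with iCre. The groups overlapped through LacZ library 4 (-0.31 ± 0.06, SE, adjusted p = 0.154). The ERK phosphatases Dusp4 (-0.38 ± 0.11, adjusted p = 0.285) and Dusp6 (-0.16 ± 0.07, adjusted p = 0.441) were also lower in every pair. Errfi1, an inhibitor of the EGF receptor, was higher in every pair (0.59 ± 0.12, adjusted p = 0.175).

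Of 25 growth-factor-induced transcription factors 16 were higher and 9 lower (median 0.14, and 0.06 without number 1). In every pair 7 were higher (28%) and 3 lower (12%), beside 10% and 10.6% of all genes tested. In edgeR 0 passed, with 8 higher and 4 lower at an unadjusted p under 0.05. Fosl1, the AP-1 subunit FRA-1, stood at 16.8, 21.9, 18.02 and 16.4 CPM in LacZ libraries 1 to 4 and at 23.3, 33.0, 31.1 and 20.5 CPM with iCre. LacZ library 2 alone reached into the iCre range (0.55 ± 0.09, SE, adjusted p = 0.132 in edgeR and 0.00147 in DESeq2). The immediate early gene Egr1 showed 0.39 ± 0.10 (adjusted p = 0.212), Klf2 -0.47 ± 0.09 (adjusted p = 0.153) and the ETS factor Etv1 -0.28 ± 0.07 (adjusted p = 0.184).

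Of the 12 FGF ligands and receptors tested, 4 were higher and 8 lower (median -0.06, 0.00 without number 3 and -0.15 without number 4). The ligands Fgf10 and Fgf7 leaned higher with wide spread. Fgf10 stood at 2.98, 3.997, 4.67 and 43.3 CPM with LacZ and at 7.19, 20.9, 4.81 and 97.3 CPM with iCre, nearly level in number 3 (1.24 ± 0.36, SE, adjusted p = 0.320). Fgf7 showed 0.53 ± 0.17 (adjusted p = 0.364).

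Cell cycle genes were lower in 27 of 35, yet 1 alone, Ccnd1, was lower in every pair, and the list's pair medians were -0.33, -0.20, 0.34 and -0.55. Number 3 ran against the others: the median was -0.20 with all pairs, -0.42 without number 3 and -0.08 without number 4. Ccnd1, the G1 cyclin D1, stood at 2894, 2289, 3236 and 866 CPM in LacZ libraries 1 to 4 and at 2600, 1741, 2981 and 495 CPM with iCre (-0.36 ± 0.12, SE, adjusted p = 0.310). Of 20 p53 targets 15 were lower, 6 in every pair (30%, beside 10.6% of all genes tested). Their median was -0.10, and -0.06 without number 4. Phlda3, an inhibitor of AKT that p53 induces, stood at 286, 303, 265 and 159 CPM with LacZ and at 246, 218, 210 and 124 CPM with iCre (-0.34 ± 0.06, adjusted p = 0.150, and 0.00316 in DESeq2).

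TGFb pathway genes were lower in 15 of 20 tested, 6 in every pair (30%, beside 10.6% of all genes tested) and 0 higher in every pair (beside 10%). Their median was -0.11 (-0.17 without number 2). Ltbp4, which binds latent TGFb in the matrix, stood at 1180, 1124, 1015 and 528 CPM in LacZ libraries 1 to 4 and at 1026, 785, 670 and 283 CPM with iCre. Number 4 was the lowest in both groups, and LacZ library 3 stood beside iCre library 1 (-0.55 ± 0.11, SE, adjusted p = 0.154). The inhibitory Smad6 showed -0.60 ± 0.11 (adjusted p = 0.155). Of the BMP and Id genes 7 were higher and 11 lower of 18, and Bmp6 showed -0.66 ± 0.18 (adjusted p = 0.302). In DESeq2 Ltbp4, Smad6 and Bmp6 fell.

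Contractile and myofibroblast genes were split, 9 higher and 10 lower of 19 (median -0.01, between -0.09 without number 3 and 0.02 without number 4). Synpo2, an actin-bundling protein, showed -0.52 ± 0.10 (SE, adjusted p = 0.154). Matrix proteases and their inhibitors were split as well, 16 higher and 12 lower of 28 (median 0.05, and 0.08 without number 1). Within them Ctsk, the collagen-degrading cathepsin K (0.31 ± 0.06, adjusted p = 0.154), and Mmp3, stromelysin 1 (0.35 ± 0.10, adjusted p = 0.263), were higher in every pair, whereas Mmp2, gelatinase A, was lower in every pair (-0.31 ± 0.08, adjusted p = 0.197).

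Among 27 NFkB targets and cytokines 18 were higher and 9 lower, 6 and 2 in every pair (22.2% and 7.41%, beside 10% and 10.6% of all genes tested). Their median was 0.17, with 0.08 without number 1, 0.10 without number 2 and 0.27 without number 4. The monocyte chemokine Ccl2 stood at 103, 82.2, 112 and 53.1 CPM in LacZ libraries 1 to 4 and at 132, 106, 129 and 71.6 CPM with iCre. The groups overlapped, each pair being higher with iCre (0.35 ± 0.06, SE, adjusted p = 0.134 in edgeR and 0.00534 in DESeq2). Icam1 belongs to the same list and was lower. Interferon-stimulated genes were higher in 23 of 28, but 0 were so in every pair, and the pair medians were -0.28, -0.26, 0.88 and 0.15. Their median was 0.11 with all pairs and -0.15 without number 3.

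Antioxidant genes under NRF2 were split, 11 higher and 9 lower of 20. Hmox1, haem oxygenase 1, stood at 110, 84.7, 131 and 127 CPM with LacZ and at 126, 111, 186 and 183 CPM with iCre (0.41 ± 0.07, SE, adjusted p = 0.134 in edgeR and 0.00171 in DESeq2). Aldh3a1, an aldehyde dehydrogenase, stood at 14.3, 15.9, 18.3 and 11.8 CPM with LacZ and at 9.29, 6.80, 5.88 and 8.78 CPM with iCre, with no overlap (-0.97 ± 0.21, adjusted p = 0.176). The secreted glutathione peroxidase Gpx3 showed -0.51 ± 0.14 (adjusted p = 0.273).

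Of 13 genes of iron transport and storage 9 were higher and 4 lower. Trf, the iron carrier transferrin, stood at 106, 108, 139 and 127 CPM in LacZ libraries 1 to 4 and at 57.3, 81.4, 49.0 and 42.4 CPM with iCre. The groups were apart, with the smallest difference in number 2 (-1.09 ± 0.22, SE, adjusted p = 0.198 in edgeR and 3.57e-06 in DESeq2). Without number 4 its adjusted p was 0.319.

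Markers of other heart cells were low or moved with the replicate number. Of 16 leukocyte markers 14 were tested and 0 passed in edgeR or DESeq2, and their summed level was 335, 164, 625 and 76.8 CPM in LacZ libraries 1 to 4 and 340, 98.4, 746 and 74.0 CPM with iCre. Numbers 1 and 3 held the most in both groups, and the T and B cell markers Cd3e and Cd79a reached at most 0.0308 and 0.103 CPM. Leukocytes also express cytokine and interferon genes, and the part of these cells in the values of those lists was not tested.

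Of 10 cardiomyocyte markers 2 were tested, 1 higher and 1 lower with iCre. The lower one was Tnnt2, cardiac troponin T (-0.89 ± 0.17, SE, adjusted p = 0.164 in edgeR, and 0.00669 without number 4). Tnnt2 made up most of the summed level of the 10. That sum was 36.6, 34.8, 36.2 and 11.3 CPM with LacZ and 23.4, 22.0, 22.7 and 6.24 CPM with iCre, lower in every pair. Nppa was at 0 in all 8 libraries, and Myh6 and Actc1 reached at most 0.199 and 0.0616 CPM. Of 10 endothelial markers 5 were tested (summed 14.3 to 21.7 CPM with LacZ and 12.5 to 16.0 CPM with iCre). Cldn5 reached at most 0.0833 CPM.

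The mural markers, 6 of 7 tested, summed to between 222 and 586 CPM with LacZ and between 202 and 572 CPM with iCre. The Schwann markers, 3 of 6 tested, summed to 10.7 to 19.7 CPM and 5.92 to 13.9 CPM. Of the 3 tested, 1 was higher and 2 were lower. Among them Cdh19, a cadherin, was lower in every pair (-0.89 ± 0.21, SE, adjusted p = 0.177), while Sox10 reached at most 0.123 CPM. The mesothelial and epicardial markers, 6 of 8 tested, summed to 5.57 to 11.6 CPM and 5.87 to 12.7 CPM. Of the 6, 3 were higher and 3 lower (median 0.27, and -0.13 without number 3), with 2 higher and 1 lower at an unadjusted p under 0.05 in edgeR. In every pair 1 was higher and 1 lower, the latter being Upk3b (-0.66 ± 0.16, adjusted p = 0.184). No member of the 6 marker lists passed in the paired edgeR fit, whereas Tnnt2 (adjusted p = 0.000154) and Cdh19 (0.0217) fell in DESeq2.

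The same paired fit in the other conditions called 0 genes in SS, 1 in IL-1b, which rose, and 0 in TGFb, with 1463, 1304 and 737 genes at an unadjusted p under 0.05 in edgeR. Pkm showed log2 differences of -0.57 ± 0.08 in SS, -0.51 ± 0.07 in IL-1b and -0.47 ± 0.11 in TGFb (SE), beside -0.48 with bFGF, and was lower in 4 of 4 pairs of each. No difference of these differences passed, with 0.09 ± 0.11 for bFGF minus SS, 0.04 ± 0.11 for bFGF minus IL-1b and 0.00 ± 0.11 for bFGF minus TGFb (SE).

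The 3 genes were chosen for passing with bFGF, and their differences in the other conditions are given as a description. Nrxn2 showed -0.96 ± 0.16 in SS, -0.72 ± 0.23 in IL-1b and -0.08 ± 0.32 in TGFb (SE). Its level in TGFb was 1.35 CPM with LacZ and 1.18 CPM with iCre. Abca9 showed -0.45 ± 0.08, -0.43 ± 0.12 and -0.36 ± 0.22, and Prrg3 -0.78 ± 0.30, -0.74 ± 0.34 and -0.65 ± 0.24 in the same order. For Prrg3 number 3 ran the other way in SS (14.3 CPM with LacZ and 17.5 CPM with iCre) and in IL-1b (14.1 and 19.1 CPM), while the other pairs were lower with iCre in both. Of these 3 genes Nrxn2 alone passed an interaction test, against TGFb (-1.44 ± 0.25, adjusted p = 0.0397), and it did not pass in any of the 4 fits that left out one number.

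The iCre effect with bFGF was tested against that in each other condition in 1 model over all 32 libraries. Against SS 0 of 16760 genes passed in edgeR and 0 in DESeq2 (349 at an unadjusted p under 0.05, 2.08%). Against IL-1b 0 passed in edgeR and 5 in DESeq2 (692 at an unadjusted p under 0.05, 4.13%). Against TGFb 14 genes passed (0.0835%), 3 with the higher effect under bFGF (0.0179%) and 11 with the lower (0.0656%). That count was 52 in DESeq2, between 4 and 9 when one replicate number was left out (4 without number 1, 9 without 2, 7 without 3 and 5 without 4), and 0 when the vector terms per number were dropped.

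Zfp395, a zinc finger protein, had the smallest p against TGFb. Its log2 differences with bFGF were -0.23, 0.00, -0.61 and 0.53 in pairs 1 to 4, and with TGFb 0.58, 1.08, 0.76 and 1.41. The effect was of mixed sign under bFGF and positive in every pair under TGFb (difference -1.03 ± 0.13, SE, adjusted p = 0.0064), and it passed in all 4 fits that left out one number. Itga8, the integrin α8 chain, showed -0.44, -1.13, -0.51 and 0.40 with bFGF and 0.62, 0.68, 0.65 and 1.06 with TGFb (difference -1.12 ± 0.15, adjusted p = 0.0112), and passed in 2 of the 4 such fits.

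Aacs, the acetoacetyl-CoA synthetase that feeds ketone bodies into lipid synthesis, was lower with iCre in every TGFb pair (-0.33, -0.45, -0.36 and -0.41) and higher in 3 of 4 bFGF pairs (difference 0.56 ± 0.08, adjusted p = 0.0143). Insig1 and the sterol enzyme Msmo1 differed in the same direction as Aacs (0.51 ± 0.09 and 0.69 ± 0.12, both adjusted p = 0.0444). With one number left out, Aacs passed in 1 of 4 fits, without number 4, Msmo1 in 1 of 4, without number 2, and Insig1 in 0 of 4. The urea transporter Slc14a1 showed within-pair differences of 0.81, 0.94, -0.35 and 0.73 with bFGF and of 0.00, 1.77, 0.67 and 2.85 with TGFb, where LacZ libraries averaged 1.04 CPM. Their means, 0.53 and 1.32, lay closer together than the fitted difference of -2.08 ± 0.28 (adjusted p = 0.0112). Its adjusted p was 0.327 in DESeq2 and 0.723 without number 4.

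Against SS and IL-1b the genes of smallest p did not pass. Nqo2, a quinone reductase, was lower with iCre in every bFGF pair and higher in 3 of 4 SS pairs (difference -0.64 ± 0.12, SE, adjusted p = 0.875). Ackr3, an atypical chemokine receptor, was higher with iCre in every bFGF pair and in 2 of 4 IL-1b pairs (difference 0.88 ± 0.14, adjusted p = 0.0861). Rhob, a small GTPase, was lower in every bFGF pair and higher in 3 of 4 IL-1b pairs (difference -0.44 ± 0.08, adjusted p = 0.102). The other genes in this order were of mixed sign with bFGF and did not pass. Against IL-1b they were Gda (adjusted p = 0.0861) and Slco2a1 (0.102), at -0.12 and -0.31 in bFGF pair 4. Against SS they were Prss35, Sort1 and Fdps.

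**Figure D5:**
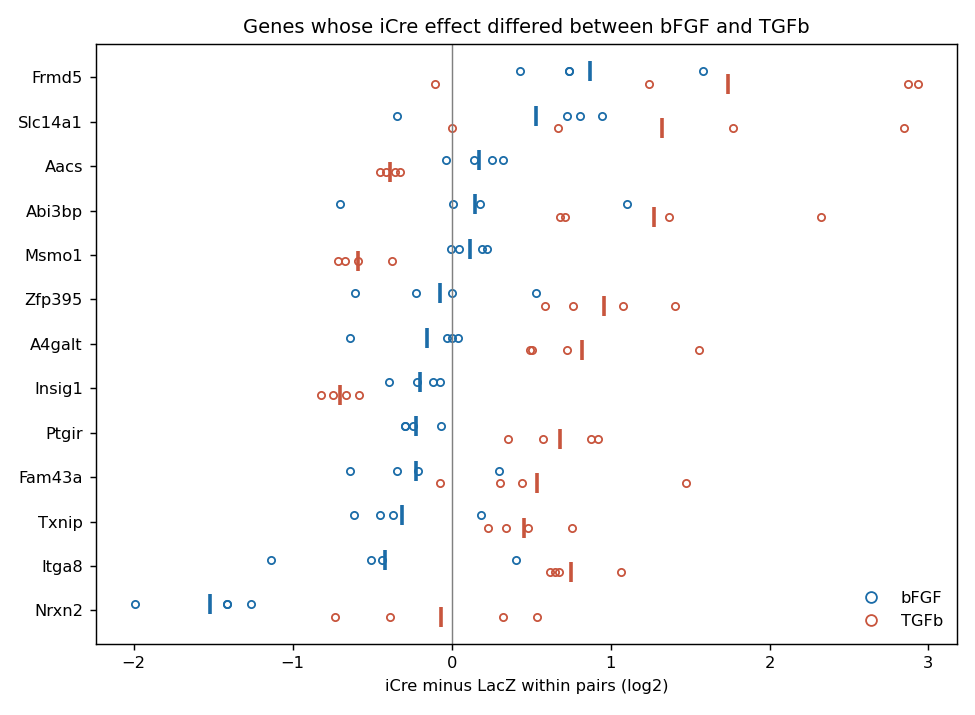
Log2 differences within pairs (iCre minus LacZ) with bFGF and with TGFb for the genes whose iCre effect differed between these conditions. Each circle is one pair. For Aacs, Insig1 and Msmo1 the TGFb circles lie below 0 in every pair, and for Zfp395, Itga8, Ptgir and Txnip they lie above 0 in every pair.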

How the data were processed

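The values are raw counts of reads per gene, as the authors deposited them in 1 table of 55414 Ensembl gene IDs and 32 libraries with 0 columns of no sample. FastQC 0.10.1, HTSeq 0.10.0 and the builds mm10 and GRCm38 are named per the submitters' processing notes. Aligner, strand setting and annotation release: not given in the sources used here, so overlapping and antisense genes may share reads. Symbols and coordinates are from GENCODE M21 (GRCm38), which matched 52133 IDs holding 99.77% of the counts. Total counts set the precision of each level.

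The 8 bFGF libraries were fitted by quasi-likelihood with robust dispersion in edgeR 4.0.16 under R 4.3.3, after TMM scaling and filterByExpr by group, with the replicate number as a block, which left 3 residual degrees of freedom. Tests were two-sided with Benjamini-Hochberg adjustment over 15163 genes and a threshold of 0.05. The SE of an edgeR difference is its absolute value divided by the square root of the quasi-likelihood F statistic. It therefore restates the test and is not a separate estimate of spread. Levels are CPM with TMM factors over all 32 libraries, and differences within pairs are log2 CPM with a prior count of 2. Interactions used all 32 libraries, blocking on every combination of condition and number, with vector terms per number. Alternatives were DESeq2 1.42.0, limma-voom (limma 3.58.1, added after seeing the data), other scalings, filters and blocks, and leaving out each number. The paired fit and the TGFb interaction fit were also run on simulated counts with known fold changes, and the outcome is not given here. Python 3.11.15 with matplotlib 3.10.9 made the figures.

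The labels give both vectors the numbers 1 to 4. Same-numbered libraries correlated at 0.657, 0.422, 0.698 and 0.874 in their deviations from the group means, each highest with its own number.

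The comparison, the gene lists and the tests were chosen with earlier results of these data known. Genes named are Pkm, the genes past the threshold with mean log2 CPM not under 1 and one direction in all 4 pairs, filled to 8 per direction by smallest p, up to 5 members of each list and up to 4 genes of each interaction, by smallest p. Map3k7, the members given as called in an alternative or moving in every pair, the genes of the 32-library fit and further genes of the TGFb interaction were named after their values were seen. Lists are described by counts and medians without a test. Their counts are to be read beside the shares of all genes tested. These were 10% higher and 10.6% lower in every pair, and 5.08% higher and 6.17% lower at an unadjusted p under 0.05 in edgeR. In DESeq2 0.389% rose and 1.21% fell.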

Additional observations from a re-analysis of the deposited data

Results flagged for a closer look

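For 77 genes named in the text, each group of 4 libraries was checked for a library far from the other three on the log2 CPM scale, using the gap to the nearest library divided by the group's range. Of 154 groups 24 passed Dixon's 95% limit, which about 1 in 20 independent groups would pass by chance, and 22 of the 24 were in number 4. The genes were chosen from these data and their groups share the same libraries. The 154 groups are therefore not independent, and the count is a description. In LacZ library 4 the level was far below the others for Aass (0.922), Col5a3 (0.832), Col8a2 (0.922), Prelp (0.919), Tbx20 (0.939), Dusp4 (0.87), Klf2 (0.943), Etv1 (0.946), Smad6 (0.91), Bmp6 (0.93) and Tnnt2 (0.957). It was far above them for Khdrbs1 (0.885), Errfi1 (0.881), Fgf10 (0.834) and Fgf7 (0.863). In iCre library 4 the level was far below for Fmod (0.839), Prelp (0.862), Klf2 (0.858), Bmp6 (0.85), Tnnt2 (0.971) and Cdh19 (0.846), and far above for Thbd (0.865). The other 2 were Icam1, far above in number 2 with LacZ (0.934) and with iCre (0.921). Both vectors of number 4 stood apart in the same direction for Prelp, Klf2, Bmp6 and Tnnt2.

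The iCre effect differed between bFGF and TGFb by an interaction test in 13 named genes and in 1 further gene. The log2 difference, bFGF minus TGFb, was -1.03 for Zfp395, -1.12 for Itga8, -2.08 for Slc14a1, -1.20 for Abi3bp, -0.77 for Txnip, -0.94 for Ptgir, -1.02 for A4galt, -0.78 for Fam43a, -1.85 for Frmd5 and -1.44 for Nrxn2. It was 0.56 for Aacs, 0.51 for Insig1 and 0.69 for Msmo1. For Frmd5, as for Slc14a1, the mean within-pair differences, 0.87 with bFGF and 1.74 with TGFb, lay closer together than the fitted difference. Frmd5 averaged 1.11 CPM in the LacZ libraries with TGFb and passed in 1 of the 4 fits that left out one number. Of the 14, 2 still passed without number 1, 6 without number 2, 5 without number 3 and 4 without number 4, and 12 passed in DESeq2.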

How the results depend on the processing

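The count of genes changed in either direction, 3 in the paired fit, was 3 with RLE size factors, 0 with total counts, 0 with at least 1 CPM in at least 4 libraries, 238 with no filter, 242 in DESeq2 and 5 in limma-voom, and ranged from 0 to 162 when one number was left out. Without the replicate block it was 0, and over all 32 libraries it was 15 with a block for each pair, 1 with an additive replicate block and 0 with no replicate block; the cause was not tested. The Pkm log2 difference passed at -0.48 in DESeq2, -0.47 with no filter and -0.48 with the pair block over 32 libraries, and ranged from -0.56 to -0.37 when one number was left out, passing without number 4. Without the replicate block it was -0.46 (adjusted p = 1.0). The IL-1b interaction count was 3 with no filter and 5 in DESeq2. The TGFb interaction count was 0 without vector terms per number, 52 in DESeq2 and from 4 to 9 with one number left out. Medians of 11 of the 34 gene lists changed sign in at least 1 alternative, among them interferon-stimulated genes (0.11 to -0.15) and mesothelial markers (0.27 to -0.13), both without number 3. Of the values of named genes 157 stayed on the same side of the threshold, 42 came to pass and 24 no longer passed; of the list medians 467 moved by less than their spread and 9 by more. With 3 residual degrees of freedom, a p that misses the threshold does not show that a gene did not differ.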
